A study of Homo sapiens with 9 samples.

Results

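The 42 genes described here lie on chromosome 12 at 12q13-q14, from TIMELESS to SRGAP1, with CDK4 among them, and they are 42 of the 42717 genes in the deposited count table. They were chosen by name within that stretch (GRCh38, 56416363 to 64162217), with the measured values of these 9 libraries already known, so their fold changes and calls are given as a description and without p-values. The study sequenced poly(A)-selected RNA from human pancreatic ductal adenocarcinoma (PDAC) cells, the lines S2-007, S2-028 and S2-020. All 3 lines are sublines of a single parental line, SUIT-2, and all were grown in DMEM with fetal bovine serum, with no agent added. In S2-007 the tumour suppressor maspin is found in nucleus and cytoplasm, whereas S2-028 holds it in the cytoplasm and S2-020 makes little of it, and the study asked how expression differs between such cells. Each line is represented by 3 libraries, and nothing in the labels says whether these came from separate cultures. The errors given therefore rest on the spread between these libraries, which may be technical.

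This stretch of chromosome 12 is dense with genes. CDK4, the kinase that works with D-type cyclins to phosphorylate RB and move cells through G1, is its best known member in cancer, and the segment around it is gained in some tumours, sarcomas and gliomas among them. Its neighbours have unrelated jobs, among them the replication fork protein TIMELESS, the interleukin signal carrier STAT6, the Hedgehog effector GLI1, the endocytic receptor LRP1 and a subunit of mitochondrial ATP synthase. DNA copy number was not analysed here.

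The total count was between 60328748 and 86253923 per library, and the 42 genes took between 0.372% and 0.376% of the counts in S2-007, between 0.695% and 0.70% in S2-020 and between 0.718% and 0.732% in S2-028. No library stood apart from its line. The epithelial markers KRT8, KRT18, KRT19, EPCAM and CDH1 were all present in every library, with a summed level of 9320 to 9810 CPM (counts scaled to the library's total, TMM-normalized) in S2-007, 4270 to 5380 in S2-020 and 14400 to 16900 in S2-028. Summed markers of fibroblasts, leukocytes, endothelium, acinar and endocrine cells were each at most 10 CPM, and SST was at or under 3 counts in every library. In bulk RNA, fewer cells that use a gene and less RNA of it per cell cannot be told apart.

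Promoter windows for 29 of the 42 genes were found in RefSeq (GRCh38.p14), as 37 windows of 300 bases. To show start regions of genes that behaved differently, the 250 bases before a start site of 4 members are printed, chosen after their values were seen. The stretches of CDK4, MARCHF9 and LRP1 adjoin the 5′ end of the gene, whereas that of NEMP1 lies inside the gene as annotated (57055643 to 57088627), before an internal start site. CDK4 and NEMP1 were higher in both S2-020 and S2-028, MARCHF9 was higher in S2-028 alone, and LRP1 was lower in both. Each runs 5′ to 3′ on the strand of its gene. Capitals mark 3 kinds of motif that were searched for on both strands. The first is the GC box, with the letters GGGCGG, or its complement where it lies on the opposite strand. The second is the CCAAT box, spelled as its name. The third is the E-box, here only the palindrome CACGTG. GC boxes that share bases run together.
CDK4, chr12:57752311-57752560, minus strand: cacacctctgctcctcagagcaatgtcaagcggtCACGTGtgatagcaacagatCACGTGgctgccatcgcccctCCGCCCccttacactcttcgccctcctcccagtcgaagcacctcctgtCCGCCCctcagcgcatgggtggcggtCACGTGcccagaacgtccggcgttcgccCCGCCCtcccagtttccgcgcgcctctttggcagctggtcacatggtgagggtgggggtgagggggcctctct
NEMP1, chr12:57078792-57079041, minus strand: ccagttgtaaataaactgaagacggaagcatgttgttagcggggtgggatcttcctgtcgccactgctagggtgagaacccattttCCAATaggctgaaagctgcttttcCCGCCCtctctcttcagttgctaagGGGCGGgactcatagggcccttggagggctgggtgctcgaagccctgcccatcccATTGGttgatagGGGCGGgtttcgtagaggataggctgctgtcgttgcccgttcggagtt
MARCHF9, chr12:57754853-57755102, plus strand: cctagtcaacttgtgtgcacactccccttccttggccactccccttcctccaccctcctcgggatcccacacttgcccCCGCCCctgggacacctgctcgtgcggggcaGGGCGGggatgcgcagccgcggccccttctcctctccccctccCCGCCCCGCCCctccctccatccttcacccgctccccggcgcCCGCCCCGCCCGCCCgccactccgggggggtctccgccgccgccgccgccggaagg
LRP1, chr12:57128233-57128482, plus strand: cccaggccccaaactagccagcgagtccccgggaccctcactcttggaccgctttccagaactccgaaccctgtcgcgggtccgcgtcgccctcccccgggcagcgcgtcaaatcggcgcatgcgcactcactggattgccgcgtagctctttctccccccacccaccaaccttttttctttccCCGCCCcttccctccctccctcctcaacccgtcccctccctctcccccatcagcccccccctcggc

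The CDK4 stretch holds 3 E-boxes and 3 GC boxes, and that of MARCHF9 holds 7 GC boxes. NEMP1 has 3 GC boxes and 2 CCAAT boxes, and LRP1 has 1 GC box. Over the full 300 bases, a GC box was found in 64.9% of the members' 37 windows and in 45.0% of all 35116 windows, an E-box in 16.2% and 7.26%, a CCAAT box in 32.4% and 34.6%, and a TATA box in 5.41% and 11.5%. The TATA box was searched for as TATAAA. An E2F site was searched for in 2 spellings. The first, TTTCGCGC, was in none of the members' windows and in 0.515% of all windows. The second, TTTGGCGC, was likewise in none and in 0.652%. The median GC content was 63% against 58.7%. These are matches of letters and were not tested.

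In S2-028 most of these genes were higher than in S2-007. All 42 genes passed the filter on low counts, and a gene was called where its adjusted p was under 0.05 and it differed by 1.5-fold or more. By that rule 28 members were higher in S2-028, where 10.2% of the 26371 genes tested were called higher. LRP1 and GLI1 were lower, where 8.19% of all genes were. Libraries of the compared lines were fully apart for 31 members that were higher and 4 that were lower, beside 22.0% and 21.3% of all genes. The median log2 fold change of the members was 1.05, with a range of -2.33 to 2.65, and that of all genes tested was 0.002. Since the members were chosen with such values in view, these counts show what was chosen and nothing is read from them.

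In S2-020 against S2-007, 27 members were called higher and 1, LRP1, lower, beside 9.57% and 12.1% of 26657 genes. The libraries did not overlap for 35 higher and 2 lower members, against 24.7% and 23.8% of all genes. The members' median was 0.98 and that of all genes -0.05. Both comparisons use the same S2-007 libraries, so they are set side by side and their likeness is not counted as a result.

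S2-028 against S2-020 does not use S2-007, and here the members were spread around 0. Of the 42 genes 6 were higher in S2-028 (AGAP2, DTX3, MARCHF9, PPM1H, SLC16A7 and STAT6), and 4 were lower (B4GALNT1, GLI1, SRGAP1 and STAC3). The background in this comparison was 12.1% called higher and 10.1% called lower among 26031 genes. Libraries did not overlap for 15 higher and 16 lower members, beside 24.2% and 24.7% of all genes. The median of the members was -0.11 and that of all genes 0.03.

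**Figure D1:**
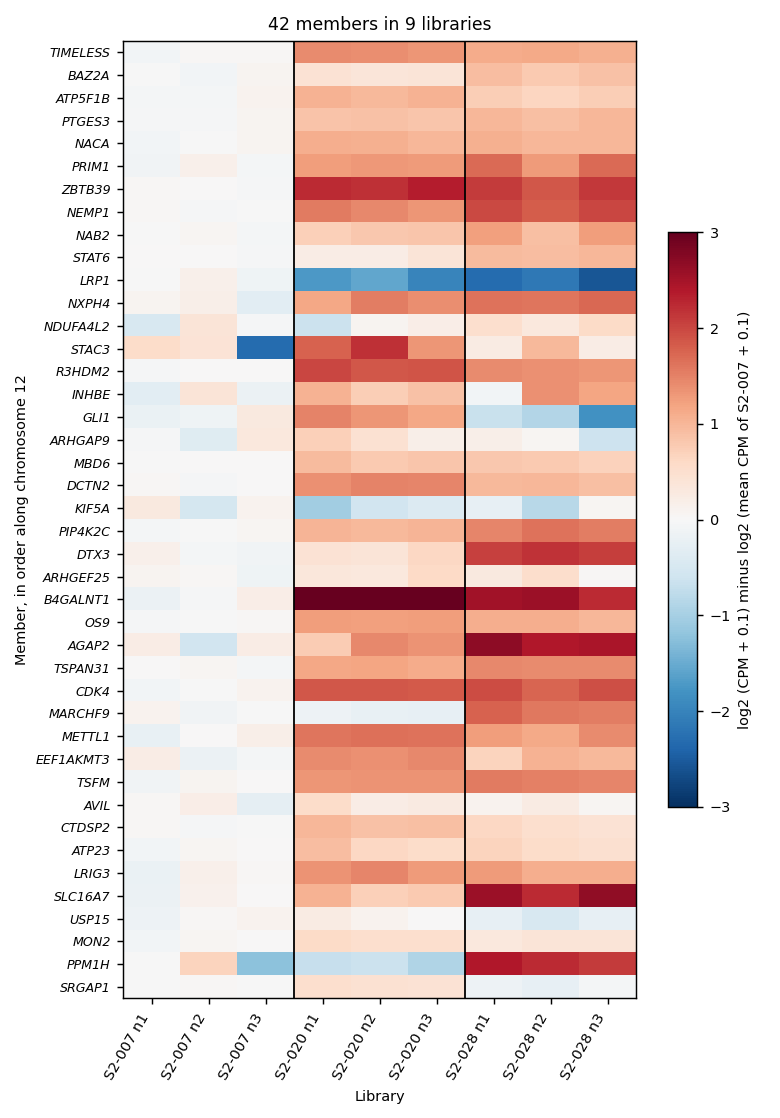
Each cell is one of the 42 genes (in order along chromosome 12, top to bottom) in one of 9 libraries, coloured by its log2 (CPM + 0.1) minus that of the S2-007 mean. The S2-020 and S2-028 columns are red for most genes, with LRP1 blue in all 6 of those libraries, GLI1 red in S2-020 and blue in S2-028, and MARCHF9 and PPM1H strongly red only in S2-028.

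Taking each library as a whole, the median member stood at 1.01 ± 0.0262 (SD, n = 3 libraries) above the S2-007 mean on the log2 scale in S2-020 and at 1.06 ± 0.0248 in S2-028. In S2-007 it was at 0.002 ± 0.0199. The 3 libraries of a line therefore lay within a few hundredths of each other. A call pattern shared by 20 of the 42 genes was higher in both lines than in S2-007 with no call between S2-020 and S2-028. It was shown by CDK4, by TSPAN31, METTL1, EEF1AKMT3 and TSFM near it, and by genes as far as TIMELESS on one side and LRIG3 on the other. It was not shown by MARCHF9 and AGAP2, which also lie beside CDK4. The share of all genes tested that have this joint pattern was not computed, so nothing is read from the count.

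The members are described below in groups by role, formed after the values were seen, so no theme is read from a group's count. Of all members, 66.7% were higher in S2-028 and 64.3% in S2-020 against S2-007. Between S2-028 and S2-020, 14.3% were higher and 9.52% lower. Genes of cell cycle, DNA replication and the nuclear envelope were all higher in both lines, 4 of 4. CDK4 (NCBI gene 1019, chromosome 12 from 57747727 to 57752310 of GRCh38.p14) was at 105, 110 and 119 CPM in S2-007, at 405, 408 and 402 in S2-020 and at 432, 377 and 428 in S2-028. Every library of S2-020 and S2-028 was far above all of S2-007, and these 2 lines overlapped. The log2 fold change was 1.89 (standard error 0.0676) in S2-028 and 1.83 (0.0527) in S2-020, which is 3.70-fold and 3.55-fold, and 0.03 (0.0534) between S2-028 and S2-020. Of the exon bases of CDK4, 44.2% lie under TSPAN31 on the other strand, and how the counting treated strand is not given in the sources used here.

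NEMP1, an inner nuclear membrane protein, was at 55.3, 52.4 and 53.2 CPM in S2-007, at 157, 146 and 135 in S2-020 and at 210, 190 and 217 in S2-028. The 3 lines did not overlap, with S2-028 the highest. Its log2 fold change was 1.94 (0.0668) in S2-028 and 1.42 (0.0621) in S2-020. No exon base of NEMP1 lies under another gene.
PRIM1, the catalytic subunit of DNA primase, had means of 19.1, 46.7 and 56.8 CPM in the order S2-007, S2-020, S2-028. One S2-028 library, at 46.3 CPM, fell within the S2-020 range. TIMELESS, which protects stalled replication forks together with TIPIN, had means of 122, 318 and 263 CPM, and here S2-020 was the higher of the 2 raised lines. No exon base of TIMELESS is shared with another gene, whereas 19.1% of those of PRIM1 are.

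Regulators of transcription, chromatin and RNA number 8, of which 6 were higher in S2-028 and 6 in S2-020, with NAB2, ZBTB39, MBD6 and R3HDM2 in both. STAT6, the transcription factor of interleukin signals, was at 193, 192 and 186 CPM in S2-007, at 223, 222 and 248 in S2-020 and at 365, 360 and 379 in S2-028. Each line lay above the one before. Only the rise in S2-028 passed the size limit, at 0.95 (0.0574) against S2-007 and 0.67 (0.0534) against S2-020, while S2-020 against S2-007 was at 0.25 (0.0551). NAB2, a corepressor of EGR factors whose gene adjoins STAT6, was raised in both lines, at 11.7 ± 0.456, 20.2 ± 0.881 and 25.8 CPM in the order S2-007, S2-020, S2-028.

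GLI1, the transcription factor that carries out Hedgehog signals and is itself induced by them, went opposite ways in the 2 lines. It was at 0.855, 0.900 and 1.25 CPM in S2-007, at 3.01, 2.64 and 2.37 in S2-020 and at 0.596, 0.501 and 0.213 in S2-028. All S2-020 libraries were above S2-007 and all S2-028 libraries below it. The log2 fold change was 1.39 (0.234) in S2-020, -1.19 (0.404) in S2-028 and -2.61 (0.317) between S2-028 and S2-020. These levels rest on few reads, 64 to 92 in S2-007 and 13 to 37 in S2-028, and the call in S2-028 against S2-007 was lost without S2-028 replicate 3 (-0.86) and without S2-007 replicate 3.

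ZBTB39, a zinc finger protein with a BTB domain, rose most among these regulators, from 8.55, 8.33 and 8.09 CPM in S2-007 to 39.8, 38.6 and 43.0 in S2-020 and 35.8, 30.8 and 36.4 in S2-028. That is 4.76-fold and 4.13-fold, with no exon base under another gene. R3HDM2, which carries an R3H nucleic acid binding domain, was at 37.2, 38.5 and 38.3 CPM in S2-007, at 152, 139 and 142 in S2-020 and at 102, 98.5 and 95.9 in S2-028. The 3 lines did not overlap, with S2-020 the highest, but 31.6% of its exon bases are shared with a readthrough gene. The methyl-CpG-binding domain protein MBD6 rose by 0.77 (0.0593) in S2-028 and 0.83 (0.0545) in S2-020. BAZ2A, of the complex that silences ribosomal DNA, passed in S2-028 at 0.87 (0.0603) but not in S2-020 at 0.36 (0.0505), and the difference between those lines, 0.48 (0.0489), was under the size limit. The small phosphatase CTDSP2 passed in S2-020 at 0.90 (0.0529) but not in S2-028 at 0.53 (0.0640), and was at -0.40 (0.0578) between them.

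Genes for protein synthesis, folding and quality control were higher in both lines, 6 of 6, and none was called between S2-028 and S2-020. METTL1, a methyltransferase that modifies guanosine in tRNAs, was at 24.9, 29.3 and 32.6 CPM in S2-007, at 87.8, 91.8 and 89.8 in S2-020 and at 69.6, 64.2 and 77.0 in S2-028. All 6 libraries lay above all of S2-007, with S2-020 above S2-028. EEF1AKMT3, which methylates the elongation factor eEF1A, had means of 6.89, 18.5 and 13.02 CPM. TSFM, a mitochondrial translation elongation factor, had means of 31.02, 78.9 and 88.8 CPM, but 71.2% of its exon bases are shared with a readthrough gene or with AVIL and its reads cannot be separated from those here.
NACA, the alpha subunit of the complex that binds nascent chains at the ribosome, rose by 1.03 (0.0550) in S2-028 and 1.02 (0.0481) in S2-020. PTGES3, the HSP90 co-chaperone p23, rose by 0.97 (0.0559) and 0.83 (0.0461). OS9, the lectin that hands misfolded glycoproteins to degradation at the endoplasmic reticulum, was at 137, 139 and 143 CPM in S2-007, at 332, 330 and 334 in S2-020 and at 297, 297 and 281 in S2-028. The 3 lines did not overlap, with S2-020 the highest, and 23.9% of its exon bases lie under other genes.

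Of the 3 genes of mitochondrial energy, ATP5F1B was raised in both lines. This catalytic beta subunit of ATP synthase was at 887, 890 and 990 CPM in S2-007, at 1888, 1818 and 1886 in S2-020 and at 1548, 1440 and 1533 in S2-028. The lines did not overlap, and the log2 fold change was 0.71 (0.0552) in S2-028 and 0.99 (0.0452) in S2-020. ATP23, a mitochondrial metalloprotease homologue, sat at the size limit, with 0.69 (0.126) in S2-020 and 0.57 (0.128) in S2-028, and the first of these fell to 0.57 and was no longer called when S2-020 replicate 1 was left out. NDUFA4L2 was below 1 CPM in every library, with 18 to 46 counts, and its libraries overlapped in both comparisons with S2-007.

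**Figure D2:**
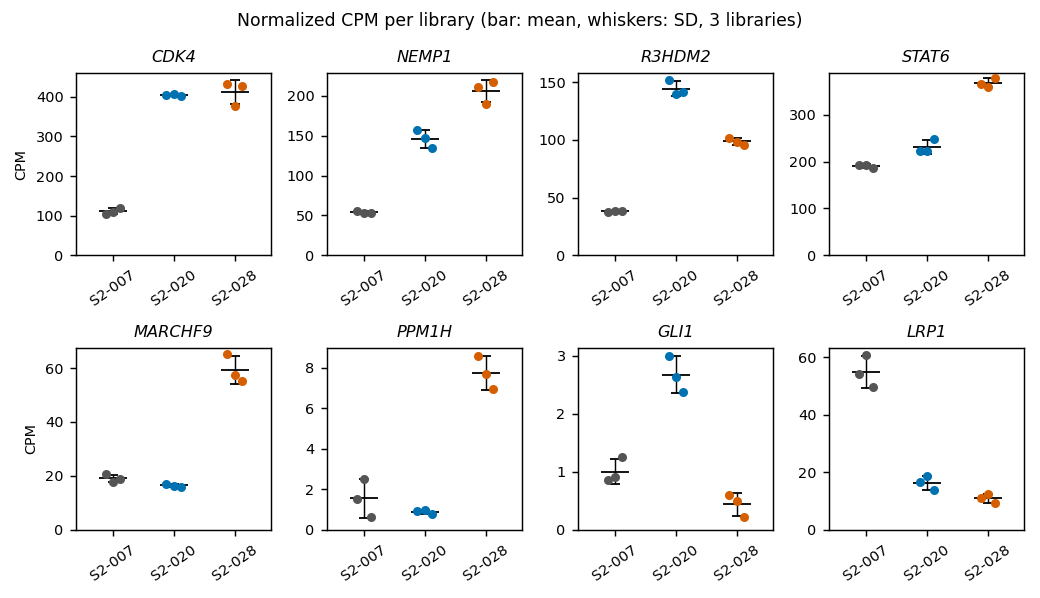
Normalized CPM of 8 members in each library (points), with the mean (bar) and SD (whiskers) of 3 libraries per line, each panel on its own axis from 0. CDK4, NEMP1 and R3HDM2 are raised in S2-020 and S2-028, STAT6, MARCHF9 and PPM1H stand highest in S2-028, GLI1 stands highest in S2-020, and LRP1 is highest in S2-007.

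Genes of signalling by ubiquitin, phosphate and small GTPases number 9, of which 5 were called between S2-028 and S2-020, 4 higher and 1 lower in S2-028. Of the 9 genes 5 were higher in S2-028 than in S2-007 and 2 were higher in S2-020. MARCHF9, a membrane-bound ubiquitin ligase whose gene starts beside CDK4, was at 20.5, 17.6 and 18.9 CPM in S2-007, at 16.9, 16.3 and 15.95 in S2-020 and at 65.2, 57.4 and 55.2 in S2-028. S2-028 was far above both other lines, and S2-020 lay slightly below S2-007. The log2 fold change was 1.64 (0.0860) in S2-028, -0.24 (0.0883) in S2-020 and 1.85 (0.0790) between S2-028 and S2-020, and no exon base of MARCHF9 lies under another gene. DTX3, a ubiquitin ligase of the deltex family, was at 9.53, 8.18 and 7.96 CPM in S2-007, at 11.5, 11.3 and 13.3 in S2-020 and at 35.6, 39.1 and 36.1 in S2-028. Its fold changes were 4.32-fold in S2-028 and 1.38-fold in S2-020.

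PPM1H, a phosphatase that acts on Rab GTPases, was at 1.52, 2.51 and 0.597 CPM in S2-007, at 0.919, 0.950 and 0.781 in S2-020 and at 8.602, 7.69 and 6.95 in S2-028. The S2-028 libraries stood alone, at 424 to 534 counts, and the S2-007 libraries spread widely, with 44 to 187 counts. Its log2 fold change between S2-028 and S2-020 was 3.13 (0.184). AGAP2, a GTPase-activating protein for Arf with a GTPase domain of its own, rose from 0.893 ± 0.285 CPM in S2-007 to 2.21 ± 0.543 in S2-020 and 5.56 in S2-028, and the 3 lines did not overlap. It had 42 to 79 counts in S2-007, and 14.6% of its exon bases lie under other genes, among them AGAP2-AS1, OS9 and TSPAN31. PIP4K2C, a lipid kinase, was at 53.3, 107 and 155 CPM in the same order of lines and was raised in both.
The other 4 genes of this group were not called against S2-007. USP15, a deubiquitinase, was at 70.2, 76.3 and 56.3 CPM, and SRGAP1, which acts downstream of SLIT and ROBO, at 52.9, 73.4 and 47.6 CPM. The guanine nucleotide exchange factor ARHGEF25 was at 7.67, 10.3 and 9.45 CPM, with 49.5% of its exon bases shared with other genes. The GTPase-activating protein ARHGAP9 had at most 59 counts in a library. SRGAP1 was the only one of the 4 called between S2-028 and S2-020, at -0.62 (0.0641), and that call was lost when S2-028 replicate 2 was left out (-0.56).

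Among the 7 surface, secreted, glycolipid and transport genes, 5 were higher and 1 lower in each line against S2-007. LRP1, the large endocytic receptor for lipoproteins and proteases, was at 54.2, 60.9 and 49.9 CPM in S2-007, at 16.5, 18.7 and 13.8 in S2-020 and at 10.99, 12.5 and 9.26 in S2-028. All 6 libraries of S2-020 and S2-028 lay below those of S2-007. The log2 fold change was -2.33 (0.104) in S2-028 and -1.78 (0.0983) in S2-020, so S2-007 held 5.04 and 3.44 times as much. Between S2-028 and S2-020 it was -0.58 (0.127), just inside the size limit, and it passed under 6 of 13 alternatives. The gene lies between STAT6 and NXPH4, both higher in S2-028, and 0.82% of its exon bases are shared with other genes.

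B4GALNT1, which makes the gangliosides GM2 and GD2, rose most in S2-020, from 0.454, 0.510 and 0.625 CPM in S2-007 to 7.02, 5.34 and 5.38 in S2-020 and 3.53, 3.60 and 2.85 in S2-028. The fold was 10.9 in S2-020 and 6.28 in S2-028, from 34 to 46 counts in S2-007, and 27.1% of its exon bases are shared with genes on the other strand. SLC16A7, a carrier of pyruvate and lactate, went the other way round, from 2.61, 3.22 and 2.97 CPM in S2-007 to 6.14, 4.89 and 5.16 in S2-020 and 17.9, 14.2 and 19.2 in S2-028. It was 5.83-fold higher in S2-028 and 1.80-fold higher in S2-020, with no overlap between lines.
TSPAN31, a tetraspanin that overlaps CDK4 on the other strand, was at 43.6 ± 1.89, 97.1 ± 3.01 and 117 ± 0.594 CPM. LRIG3, a leucine-rich repeat membrane protein, was at 8.36, 21.7 and 18.7 CPM, and the neurexin ligand NXPH4 at 1.37, 3.71 and 4.54 CPM. All of these were higher in both lines. INHBE, a subunit of activin E, had 4 to 25 counts per library and was not called, with log2 fold changes of 1.55 (0.801) and 1.45 (0.736).

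Among genes for the cytoskeleton, motors and membrane traffic only DCTN2 was raised in both lines. This dynactin subunit, dynamitin, was at 93.5, 88.5 and 91.9 CPM in S2-007, at 237, 254 and 253 in S2-020 and at 180, 182 and 171 in S2-028. The lines did not overlap, and the fold was 1.95 in S2-028 and 2.66 in S2-020. STAC3, an adaptor of muscle excitation-contraction coupling, was called higher in S2-020, at 2.00 (0.587), but one S2-007 library had 0 of its reads while the others had 47 and 41, and the call was lost with DESeq2 and without S2-020 replicate 2. MON2, a regulator of traffic between endosomes and the Golgi, did not pass the size limit, at 0.37 (0.0681) and 0.50 (0.0609). The actin-binding advillin (AVIL) and the neuronal kinesin KIF5A were not called in any comparison, at means of 3.12 to 4.03 and 0.545 to 0.915 CPM.

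**Figure D3:**
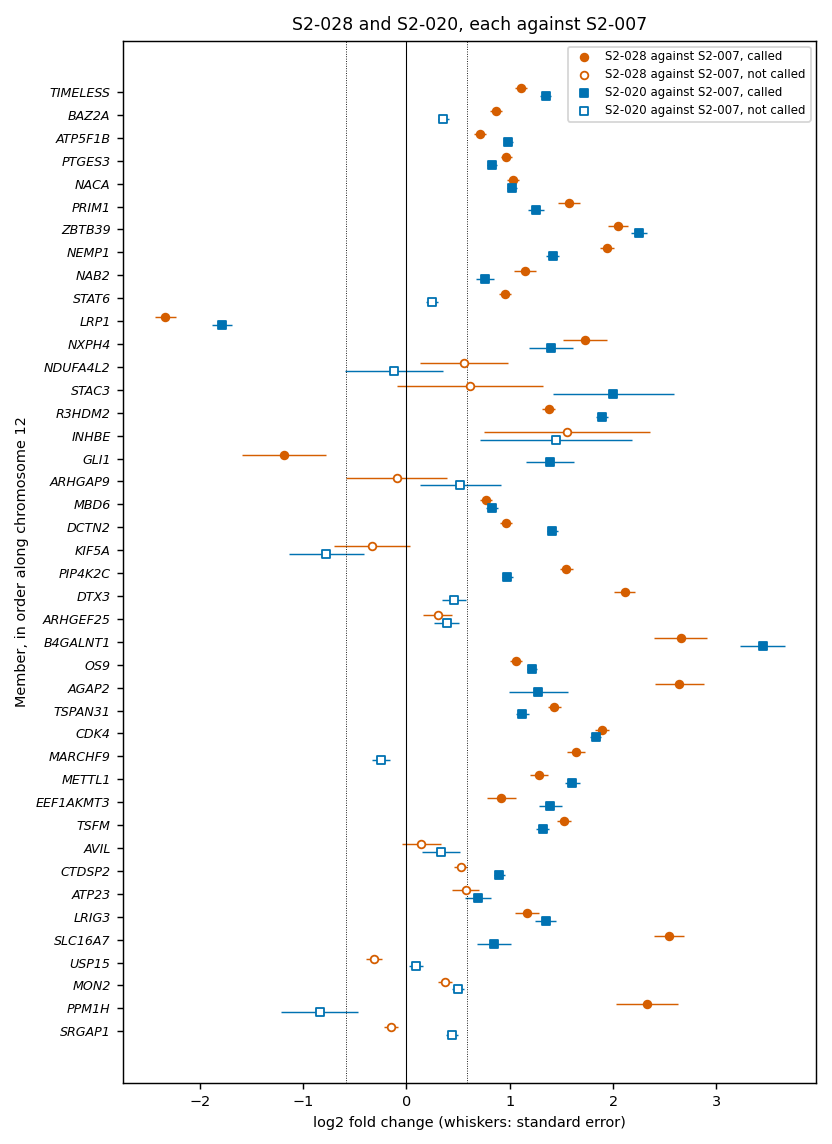
Log2 fold change of the 42 members in S2-028 (circles) and S2-020 (squares), each against S2-007, with standard errors as whiskers, filled where called, and dotted lines at the limit of 1.5-fold in either direction. Most pairs lie close together to the right of 0, LRP1 is at -2.33 and -1.78, and GLI1, MARCHF9 and PPM1H are among the genes with points on opposite sides of 0.

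Levels can be compared between genes only per length, here CPM per kilobase of the canonical GENCODE transcript, a scale that assumes that this transcript is the one made. On that scale CDK4 was at 59.8 in S2-007, 217 in S2-020 and 221 in S2-028. ATP5F1B was the most abundant, at 524, 1060 and 857, followed by PTGES3 at 256, 465 and 500. NACA, with a canonical transcript of 6387 bases, was at 78.0, 162 and 159. Its CPM before that division, 498, 1034 and 1015, were above those of PTGES3, so this order depends on the transcript taken. Of the 38 members from TIMELESS to SLC16A7, 28 had a mean of at least 5 CPM over the 9 libraries, and 24 of these were higher in S2-028 and 22 in S2-020. Of the 10 below that level 3 and 5 were higher, among genes such as KIF5A, STAC3, INHBE and NDUFA4L2 whose levels rest on few reads.

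The members do not fill the stretch, since 69 other genes of the table start within it, and 33 of those were tested in S2-028 against S2-007, 35 in S2-020 against S2-007 and 33 in S2-028 against S2-020. Of these others, 8 were called higher and 1 lower in S2-028 (24.2% higher, median 0.16) and 8 higher and 3 lower in S2-020 (22.9% higher, median 0.04), so the shares in the members were larger, as they were bound to be where the choice was made with values known. Between S2-028 and S2-020, 3 were higher and 3 lower. RBMS2, an RNA-binding protein, was at 110 ± 6.92 CPM in S2-007, 278 ± 15.3 in S2-020 and 302 ± 27.9 in S2-028. SHMT2, the mitochondrial serine hydroxymethyltransferase, was at 156 ± 11.1, 512 ± 44.1 and 406 ± 36.5 CPM, and MARS1, the cytosolic methionyl-tRNA synthetase, at 151 ± 3.96, 541 ± 45.0 and 363 ± 29.1 CPM. AGAP2-AS1 was at 12.9, 45.9 and 35.2 CPM. DDIT3, the stress factor CHOP, was at 12.1, 36.1 and 22.9 CPM and was the one non-member of sufficient level lower in S2-028 than in S2-020, at -0.65 (0.0976).

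Along the chromosome, the members called higher lay up to SLC16A7, apart from PPM1H. From TIMELESS to SLC16A7, 27 of the 38 members were higher in each line, a share that the choice of members helped to set. Of the other tested genes there, 8 of 22 were higher in S2-028 (36.4%, median 0.49) and 8 of 23 in S2-020 (34.8%, median 0.26). From USP15 to SRGAP1 the genes that are no members gave 0 of 8 in S2-028, with a median of -0.54, and 0 of 9 in S2-020, with a median of -0.52. These medians rest on low genes. The highest of them, RXYLT1, had means of 21.5 to 25.4 CPM and was at -0.10 in S2-028 and 0.11 in S2-020. Each of the others had line means of at most 5.89 CPM. In the 2 Mb after the stretch, 1 of 22 and 2 of 23 were higher. In the 2 Mb before it the higher genes went on, with 21 of 52 in S2-028 (40.4%, median 0.53) and 18 of 54 in S2-020 (33.3%, median 0.37), none of them a member. Over the rest of chromosome 12, that part included, 10.8% and 13% were higher.

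Just outside the first end, STAT2, the interferon signal carrier, was at 1.55 (0.0885) in S2-028 and 0.88 (0.0863) in S2-020, while APOF was not called. TIMELESS, just inside, was at 1.11 and 1.35. At the other end SRGAP1, just inside, was at -0.15 and 0.44, and KICS2, just outside, at 0.19 and -0.21. Counted in steps of 1 Mb from the start of CDK4 and with the members left out, the medians in S2-028 were -0.06 from 3 to 2 Mb before (13 genes), 0.68 from 2 to 1 Mb before (42 genes), 0.40 in the last Mb before (14 genes) and 0.55 in the first Mb after it (3 genes). In S2-020 the same steps gave 0.005, 0.55, 0.38 and 0.68, over 14, 43, 15 and 3 genes. The 3 genes of the first Mb after the start of CDK4 had line means of at most 4.35 CPM, so those medians rest on low genes. From 1 to 2 Mb after it, S2-028 had 1 tested gene that is no member, at -0.66 (0.171 CPM against 0.274 in S2-007). In S2-020 the 2 genes tested in that step were both members.

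**Figure D4:**
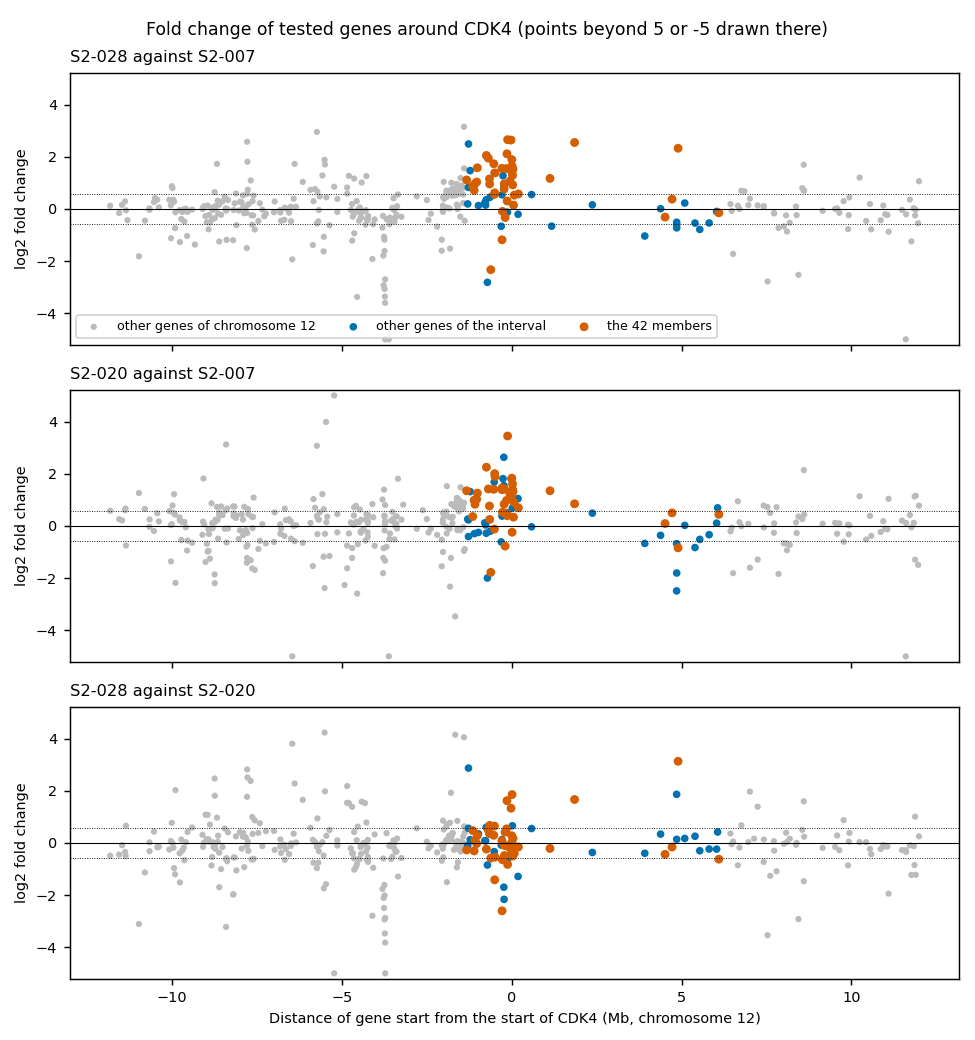
Log2 fold change of every tested gene within 12 Mb of the start of CDK4 against its distance in Mb, in 3 comparisons, with the 42 members in orange, other genes of the stretch in blue and the rest in grey. In both comparisons with S2-007 the points rise from about 2 Mb before CDK4 to about 2 Mb after it and lie on both sides of 0 beyond. After CDK4 the rise rests mostly on members, which were chosen with values known. In S2-028 against S2-020 no such rise is seen, with a member median of -0.11.

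Beyond the stretch higher genes were also found, and from 12 to 13 Mb after CDK4 their count was 4 of 8 in S2-028 (median 1.11) and 3 of 8 in S2-020 (median 0.51). From 6 to 5 Mb before CDK4 their count was 6 of 20 in S2-028 (median 0.41) and 6 of 22 in S2-020 (median 0.30). HMGA2 and MDM2, which lie beyond the stretch toward the telomere, were not higher in either line. MDM2, the ligase that degrades p53, was at 100.3 CPM in S2-007, 93.8 in S2-020 and 85.3 in S2-028, with log2 fold changes of -0.23 in S2-028 (adjusted p = 0.00935, edgeR quasi-likelihood test) and -0.13 in S2-020 (adjusted p = 0.109), both short of 1.5-fold. FRS2, an adaptor of growth factor receptors farther on, was at 0.36 (adjusted p = 0.00177 in edgeR) and 0.42 (adjusted p = 0.000109), also short of it. HMGA2, a chromatin architecture protein, was at 186, 119 and 156 CPM, lower in S2-020 at -0.67 (adjusted p = 2.34e-08 in edgeR). ERBB3, before the stretch, was higher in S2-028 at 0.71 (adjusted p = 1.22e-06 in edgeR) and lower in S2-020 at -3.47 (adjusted p = 1.33e-15), opposite ways in the 2 lines.

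Many members encode parts of complexes or pathways whose other parts are encoded outside the stretch, and 71 such partner genes were taken in 7 lists. These lists, like the genes named beyond the stretch above, were chosen with earlier results of these data known. Their adjusted p-values are therefore given as a description and are not independent tests. In S2-028 against S2-007, 3 of the 71 were higher and 5 lower, with a median of -0.14, and in S2-020 against S2-007 8 were higher and 8 lower, with a median of 0.08. Between S2-028 and S2-020, 5 of 70 tested were higher and 11 lower, with a median of -0.10, beside 12.1% and 10.1% of all genes. The shares called higher in the first 2 comparisons lie beside 10.2% and 9.57% of all genes, and those called lower beside 8.19% and 12.1%. The same shares stand beside the counts of each list below.

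Partners in stable complexes were mostly not called. The same held for 21513 of the 26371 genes tested in S2-028 against S2-007 and for 20888 of 26657 in S2-020 against S2-007. Of the 16 other subunits of ATP synthase, 0 were higher and 2 lower in each comparison with S2-007, with medians of -0.27 and -0.08, beside 0.71 and 0.99 for ATP5F1B. Members were chosen with their values known, so that a member lay above its partners was partly set by the choice and is not read as a result. The lower ones were ATP5MC2 at -0.59 (adjusted p = 1.13e-07 in edgeR) and ATP5MJ at -0.73 (adjusted p = 3.59e-07) in S2-028, and ATP5PF at -0.66 (adjusted p = 1.99e-07) and ATP5ME at -0.65 (adjusted p = 1.66e-07) in S2-020. ATP5F1A, the alpha subunit that alternates with ATP5F1B in the catalytic ring, was at 263 ± 10.9 CPM in S2-007, 296 ± 3.95 in S2-020 and 221 ± 6.86 in S2-028. Of the 11 other dynactin genes, 0 were higher in either line and 1, ACTR1A, was lower in S2-020 at -0.63 (adjusted p = 1.1e-08 in edgeR), beside 0.96 and 1.41 for DCTN2.
None of the 6 partners of PRIM1 and TIMELESS was called in any comparison, with medians of 0.23 in S2-028 and 0.20 in S2-020 against S2-007. PRIM2, the other primase subunit, was at 0.23 (0.0858) and 0.14 (0.0743), and TIPIN, the partner of TIMELESS, at 0.20 (0.107) and -0.18 (0.0914). BTF3, with which NACA forms its dimer, was at 0.06 (0.0581) and 0.15 (0.0467), and none of the 6 genes of its list was called. Where a partner was not called, small differences in it are not shown to be absent.

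The partners of CDK4 moved one by one. CDK6, its close relative, rose in S2-028, from 69.2 ± 6.89 CPM to 192 ± 10.6, at 1.48 (adjusted p = 2.99e-13 in edgeR), and was at 75.0 ± 4.28 in S2-020, which S2-028 exceeded by 1.36 (adjusted p = 5.13e-13). CCND1 and CCND3, D-type cyclins, rose in S2-020 by 0.84 (adjusted p = 1.45e-11 in edgeR) and 1.52 (adjusted p = 1.21e-12). The inhibitor CDKN2C, which binds CDK4 and CDK6, was at 47.1 ± 2.44 CPM in S2-007, 78.6 ± 2.42 in S2-020 and 12.8 ± 1.81 in S2-028. It was higher in S2-020 at 0.71 (adjusted p = 7.87e-09 in edgeR) and lower in S2-028 at -1.88 (adjusted p = 1.83e-12). CDKN1A, a p53 target, fell in both, to -1.42 in S2-028 (adjusted p = 3.51e-11 in edgeR) and -2.90 in S2-020 (adjusted p = 4.12e-14). The inhibitor CDKN1B and the factor E2F2 were higher in S2-020, at 0.67 (adjusted p = 2.52e-09 in edgeR) and 0.70 (adjusted p = 6.72e-06), and the inhibitor CDKN2D was lower there at -0.72 (adjusted p = 0.00867). In all, 1 of the 16 genes of this list was higher and 2 lower in S2-028, and 5 were higher and 2 lower in S2-020.

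In the Hedgehog list, 2 of 10 genes were higher in each line against S2-007, and 1, the ligand gene IHH, was lower in S2-020 (0.261 against 0.633 CPM, few reads, adjusted p = 0.0216 in edgeR). SHH, the ligand, rose from 15.2 ± 1.18 CPM in S2-007 to 98.7 ± 16.4 in S2-020 (2.67, adjusted p = 1.46e-14 in edgeR) and 205 ± 12.4 in S2-028 (3.76, adjusted p = 8.71e-19). The receptor PTCH1 was higher in S2-028 at 0.70 (adjusted p = 3.53e-05 in edgeR), where GLI1 was lower, and GLI3 in S2-020 at 1.37 (adjusted p = 1.53e-10). In the STAT6 list of 6 genes, 0 were higher and 1 lower in S2-028, and 1 was higher and 2 lower in S2-020. IL4R, the receptor chain that recruits STAT6, was lower in S2-028 at -0.85 (adjusted p = 1.79e-08 in edgeR), where STAT6 itself was higher, and was at 0.08 (0.0724) in S2-020. The kinase JAK1 was higher in S2-020 at 0.91 (adjusted p = 6.11e-12 in edgeR) and JAK3 lower at -0.89 (adjusted p = 0.000726). IL2RG, the common gamma chain, was also lower there, at 0.0506 against 0.636 CPM (adjusted p = 0.000227 in edgeR), levels that rest on few reads.

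**Figure D5:**
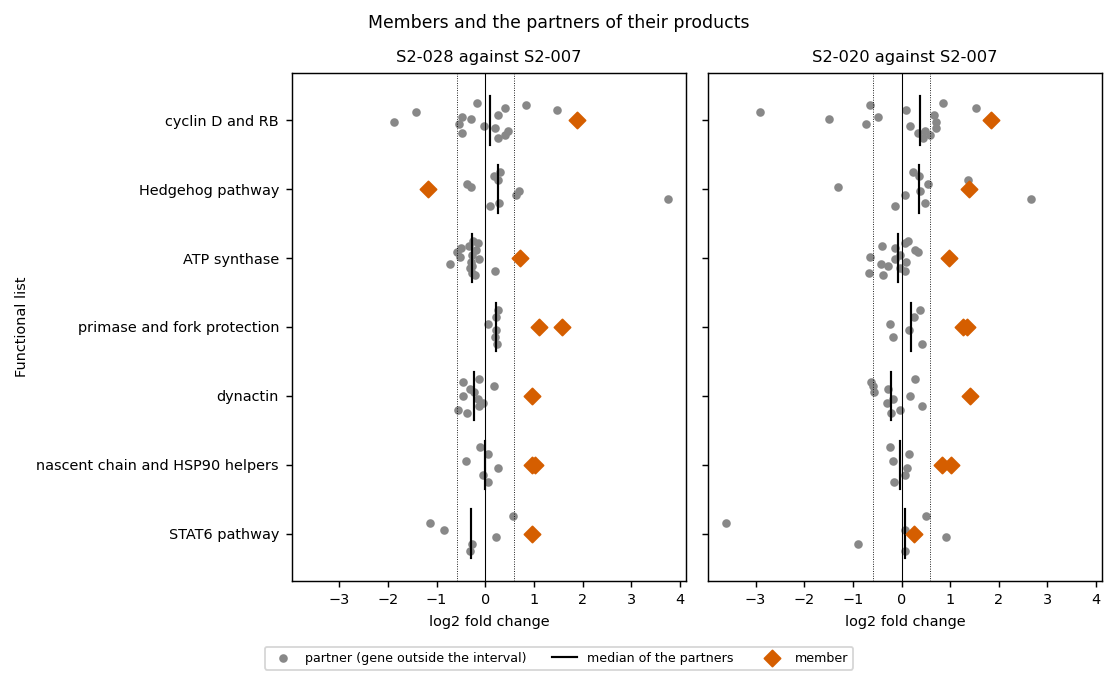
Log2 fold change of the members (diamonds) and of the partner genes of 7 functional lists (grey points, with the median of each list as a bar) in S2-028 and S2-020, each against S2-007, with dotted lines at 1.5-fold in either direction. In the ATP synthase, dynactin, primase, HSP90 and cyclin D lists the diamonds lie to the right of all grey points. So does the diamond of STAT6 in S2-028, and the choice of members with values known helped to set this. The cyclin D, Hedgehog and STAT6 lists have grey points spread on both sides of 0.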

How the data were processed

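The values used are raw read counts per gene that the authors deposited for 9 poly(A)-selected, strand-specific libraries. Per the labels and the study's methods, reads were trimmed with Trimmomatic 0.39 and aligned with BWA 0.7.17 to GRCh38.p14. BWA does not join reads across introns. The counting tool, and its treatment of strand, overlapping genes and reads with several matches, are not given in the sources used here. The authors also deposited 18 columns of normalized signal, which were not used, and 2 lines of the table that name no gene were left out of totals and tests. Coordinates come from the RefSeq table of GRCh38.p14, which held 42539 of the 42717 identifiers.

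Counts were tested in R 4.3.3 with edgeR 4.0.16 (filterByExpr, min.count 10, min.total.count 15, TMM, glmQLFit and glmQLFTest) in a separate fit for each pair of lines, 3 against 3 libraries, with Benjamini-Hochberg adjustment over all genes tested. The study's text names a likelihood ratio test and a supplementary table title the quasi-likelihood test, so the former was run as an alternative, as were RLE size factors, DESeq2 1.42.0, other filters, a fit over all 9 libraries, a replicate block and leaving out each library. The limit of 1.5-fold is the linear value of the study's log2 limit. Standard errors were computed from the fold change and the F statistic, and are printed in parentheses after the fold change. That statistic uses a dispersion moderated over genes, so these errors are not the spread of a single gene's libraries alone. CPM use TMM factors of all 9 libraries, so their ratios can differ slightly from fold changes. The procedure was tested on simulated data. The floor of 3 counts was used only to describe the marker genes and is no measure of error.

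Exon overlap, transcript lengths and words of 31 bases shared between genes were taken from GENCODE v44. The members and all lists were chosen with earlier results of these data known. All members are named, with the 3 non-members of the stretch that rose and fell most per comparison among the called ones whose mean log2 CPM reached 3, and 4 genes beyond its ends. Partner genes are named only where they were called against S2-007 or bind a member's product. The role groups were formed after the values were seen. The main fits did not pair libraries by replicate number. Deviations from the line means correlated at -0.05 to 0.14 between libraries of the same number and -0.19 to 0.17 between others. Between S2-020 and S2-028 these were 0.024 to 0.031 for the same number and -0.021 to -0.009 for others. With 3 libraries per line such values cannot exclude a pairing.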

Additional observations from a re-analysis of the deposited data

How the results depend on the processing

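The direction of the members' median was the same under every alternative run in each of the 3 comparisons, and no member that was called changed sign. In S2-028 against S2-007 the median of 1.05 moved to 1.09 with the replicate block. In S2-020 against S2-007 the median of 0.98 became 1.01 with RLE size factors, 1.01 with DESeq2, 1.01 in one fit over all 9 libraries and 0.92 with at least 10 counts in each library, and it lay between 0.968 and 1.05 when each library was left out. In S2-028 against S2-020 the median of -0.11 lay between -0.148 and -0.042 when each library was left out. With the adjusted p alone, 29 members in place of 10 and 11 other genes of the stretch in place of 6 were called in that comparison, beside 10517 in place of 5788 of the 26031 genes tested. In S2-028 against S2-007 the same rule called 34 members in place of 30, beside 8927 in place of 4858 of all genes. In S2-020 against S2-007 it called 35 in place of 28, beside 10708 in place of 5769. Under the other alternatives, a call changed at least once for 2 members (ATP23 and GLI1) in S2-028 against S2-007. It changed for 4 (ATP23, KIF5A, PPM1H and STAC3) in S2-020 against S2-007 and for 3 (LRP1, SRGAP1 and STAC3) in S2-028 against S2-020. The replicate block changed no call of a member. With 3 libraries per line, the spread of low genes such as INHBE and STAC3 is poorly known, and the cause of the shifts was not tested.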
